A study of Caenorhabditis elegans with 16 samples.

Results

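The histone genes described here were all entries of the deposited expression table whose name is his- followed by a number. They were 31 of the 8347 named entries. RNA had been sequenced from 16 libraries of whole *C. elegans*, 4 biological replicates for each of 4 groups. The groups were *osm-3* mutants on plates with 10 µg/mL tunicamycin (TM), WT animals on TM plates, *osm-3* mutants on control plates (vehicle), and WT animals on control plates. All animals were day 1 adults and had spent 6 hr on their plates. TM blocks the addition of N-glycans to new proteins and so stresses the endoplasmic reticulum. The mutants carried *osm-3(dh441)IV*, an allele with a premature stop in a gene for a kinesin that is needed to build the sensory cilia, and the WT strain was N2. The mutants were of this allele alone, and since whole animals were extracted, no value can be assigned to a tissue.

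Histones are the proteins on which DNA is wound. A nucleosome holds H2A, H2B, H3 and H4, and the linker histone H1 sits where DNA enters and leaves it. The core histone genes of animals are mostly short, lack introns, lie in clusters and are copied into RNA when a cell replicates its DNA. Their messages commonly end in a stem loop in place of a poly(A) tail, so that libraries made by rRNA depletion, as here, can hold them where poly(A) selection would lose them. In an adult *C. elegans* hermaphrodite nearly all somatic cells have stopped dividing, and the germ line and the embryos inside the animal are where DNA is replicated. Variant histones such as H3.3 are made outside S phase as well.

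By class the entries were 8 H2A genes, 8 H2B genes, 6 H3 genes, 6 H4 genes and 3 genes of H3.3 type (*his-69*, *his-70* and *his-71*). In the 4 core classes the coding lengths matched, with 381 nt for each H2A gene, 366 to 369 nt for H2B, 408 nt for H3 and 309 nt for H4. An exception was *his-39*, a model of 201 nt beside the H2B genes that counts here as a partial gene. Of the H3.3 type, *his-71* had 408 nt, *his-70* 402 nt and *his-69* 381 nt, so that length did not check this assignment. The RefSeq annotation of the genome holds 72 his- genes. The other 41, the H1 gene *his-24* among them, were not analysed here. Near-identical copies share reads. The genes *his-29* and *his-34* had the same read number in all 16 libraries, as did *his-30* and *his-33*, and *his-51* and *his-53*. The 31 entries thus held 28 distinct profiles, and the genes tested below held 26. Each such pair amounts to 1 measurement, but the counts of members, medians and sums below include both of its genes. Reads that fell to copies not analysed here are not in the sums below.

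The genes lay in 6 clusters and 2 further places on the WBcel235 genome, when members within 100 kb of each other were joined (a grouping chosen after the values had been seen). Cluster names here give the lowest-numbered gene. The *his-45* cluster (chromosome IV, 11324056 to 11407427) held *his-45* to *his-48*, *his-63* and *his-64*. The *his-5* cluster (chromosome V, 8532715 to 8536716) held *his-5* to *his-8* and *his-39*. The *his-49* cluster (chromosome V, 8847393 to 8854053) held *his-49*, *his-50*, *his-51*, *his-53* and *his-54*. The *his-35* cluster (chromosome V, 9544659 to 9547607) held *his-35*, *his-37* and *his-41*, which have 2 exons each. The *his-42* cluster (chromosome II, 13826730 to 13828697) held *his-42*, *his-43* and *his-44*, and the *his-29* cluster (chromosome IV, 8331044 to 8336340) held *his-29* to *his-34*. The variant genes *his-69* and *his-70* lay together on chromosome III (4058360 to 4060119), and *his-71*, which has 3 exons, lay on chromosome X (7981382 to 7982070). Of the 31 genes, 27 had 1 exon. In the Ensembl annotation several of these genes share their name with other loci. The name given to *his-51*, *his-53* or *his-54* is held by 4 loci, and that of *his-44* or *his-47* by 3. Those of *his-43*, *his-45*, *his-46*, *his-49* and *his-50* are held by 2 loci each. Whether reads from such loci were counted for the genes placed here was not tested.

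The deposited values were converted back to reads, which gave between 4173301 and 8144875 reads per library on named genes. The values below are normalized reads, which are reads divided by the size factor of the library. The core histone genes (27, without *his-39*) took 2.07% to 2.82% of the reads in *osm-3* TM libraries, 2.85% to 3.08% in WT TM libraries, 2.57% to 2.66% in *osm-3* vehicle libraries and 2.72% to 3.00% in WT vehicle libraries. As a check of the treatment labels, *hsp-4*, the worm BiP chaperone of the endoplasmic reticulum, was higher with TM in WT animals (log2 difference 1.02, SE 0.13, limma, adjusted p = 1.8e-04). In *osm-3* mutants its difference was 0.12 (adjusted p = 0.61), so that it does not check the TM label of the mutant libraries. The *osm-3* transcript itself was not analysed here, so the genotype labels were not checked on it. Germ line genes, which day 1 adults should express, were present in every library: the 15 of a list of 36 that the table holds summed to between 56985 and 114936 normalized reads.

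Levels differed widely between members. Per kb of coding sequence, and averaged over the 16 libraries, the core genes spanned 284-fold. The most abundant member was the H2A gene *his-47*, with 36688 normalized reads on average and 96295 per kb, and the H4 gene *his-46* followed with 73206 per kb. The H2B gene *his-48* had 60703 per kb, and the H3 gene *his-45* had 42309 per kb. All 4 are in the *his-45* cluster, whose 6 genes took 66.5% of all reads on histone genes. The *his-42* cluster took 13.1%, the *his-29* cluster 8.01%, the *his-49* cluster 5.78%, the *his-5* cluster 5.57% and the *his-35* cluster 0.943%. At the low end of each class were *his-35* for H2A (1231 per kb), *his-8* for H2B (339 per kb), *his-32* for H3 (930 per kb) and *his-37* for H4 (3243 per kb). The variant genes *his-69* and *his-71* had 251 and 233 per kb. The partial gene *his-39* (at most 5 reads in any library) and the variant *his-70* (at most 21 reads) did not pass the filter on low values, which kept entries whose mean exceeded the lowest value of the table by 1 log2 unit or more. The other 29 members were tested together with all 4115 entries that passed.

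**Figure D1:**
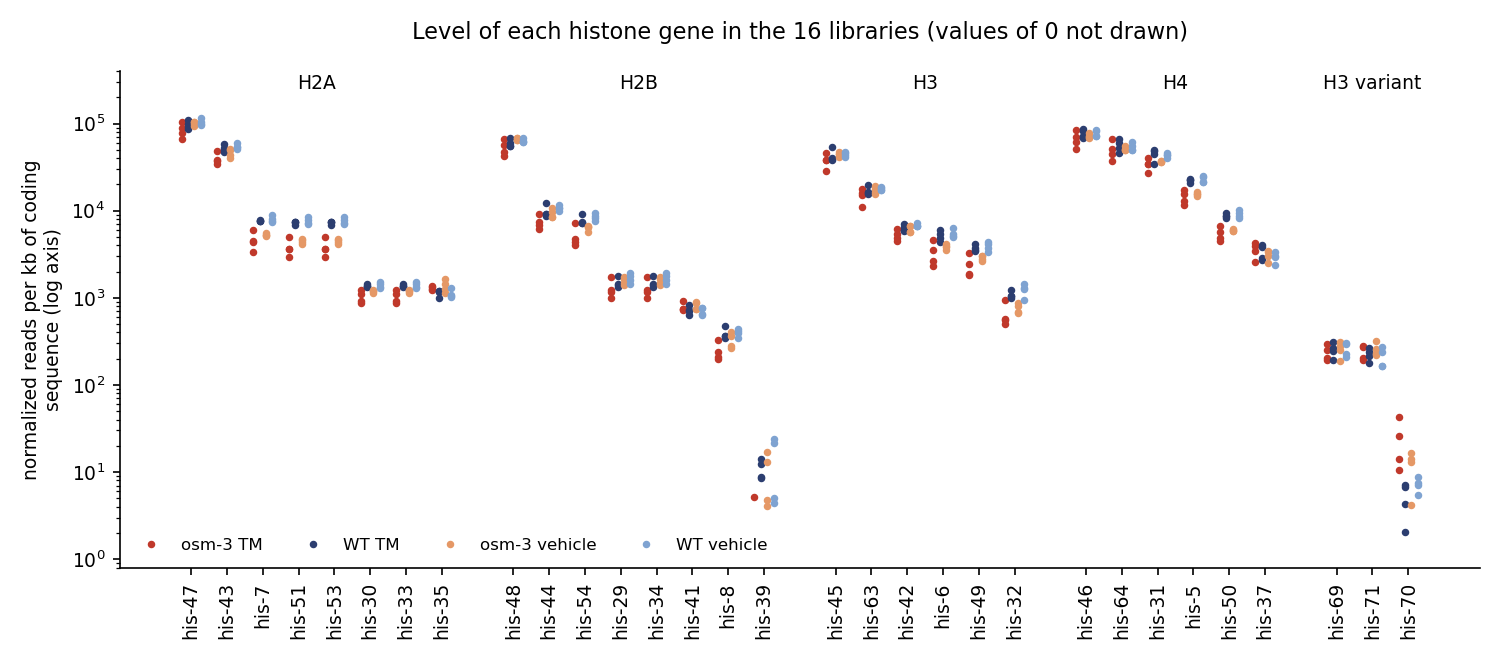
Normalized reads per kb of coding sequence (log axis) for each histone gene, ordered by mean within its class. Each point is a library and the colours mark the 4 groups, and values of 0 are not drawn. The *his-47*, *his-46*, *his-48* and *his-45* genes lead their classes, and *his-39* and *his-70* lie far below the rest.

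Under TM, 15 of the 29 histone genes tested (13 distinct profiles) were lower in the mutants relative to WT, and 0 were higher, at an adjusted p under 0.05 (limma with a trended prior on the deposited log2 values, Benjamini-Hochberg over all 4115 entries). Among all entries tested, 9.74% were lower and 9.50% higher. The median log2 difference of the members was −0.30, beside −0.10 over all entries, and 25 of the 29 lay below 0, as did 67.2% of all entries. In RNA from whole animals, fewer cells that make a message and less message per cell cannot be told apart.

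By position, 9 of the 15 lower genes lay in the *his-49* and *his-5* clusters of chromosome V. All 5 genes of the *his-49* cluster and all 4 tested genes of the *his-5* cluster were lower, and these 2 clusters held the 8 largest decreases. The *his-29* cluster had 4 of 6 lower and the *his-42* cluster 2 of 3. In the abundant *his-45* cluster 0 of 6 passed, with differences of −0.22 to −0.16, and in the *his-35* cluster 0 of 3 passed, with differences of 0.07 to 0.14. The count of 0 in the *his-45* cluster did not hold under every setting: with library weights, under which 18 members and 25.7% of all entries were lower, *his-46* (−0.31, limma, adjusted p = 0.018) and *his-64* (−0.31, adjusted p = 0.034) were among the calls, and without *osm-3* TM replicate 4, under which 19 members and 26.1% of all entries were lower, *his-47* was (−0.32, adjusted p = 0.042). With all 16 libraries weighted equally, in neither cluster did a gene have an unadjusted p under 0.05, which 16 of the 29 members and 35.4% of all entries had, and limma voom on the recovered reads also called 15 members. The leading gene of the *his-45* cluster, *his-47*, had 33899, 29691, 25338 and 39368 normalized reads in *osm-3* TM libraries, against 42375, 32875, 35064 and 37189 in WT TM libraries (log2 difference −0.21, limma, adjusted p = 0.21), and the groups overlapped.

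The largest decrease was that of the H2A copies *his-51* and *his-53*. Each had 1397, 1380.5, 1122 and 1907 normalized reads in the *osm-3* TM libraries, against 2787, 2836, 2788 and 2587 in the WT TM libraries (replicates 1 to 4 in each group). The highest mutant library, replicate 4, lay below every WT library. The log2 difference was −0.86 (SE 0.11, limma, adjusted p = 2.5e-05), and the means differed by −47.2%. The H2A gene of the *his-5* cluster, *his-7*, had 1695, 1675, 1276 and 2263 normalized reads in *osm-3* TM libraries, against 3015, 2864, 2881 and 2873 in WT TM libraries. It fell by 0.71 on the log2 scale (SE 0.12, limma, adjusted p = 2.2e-04), again with no overlap.

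Both H4 genes of these clusters fell. In *osm-3* TM libraries *his-50* had 1485, 1765, 1378 and 2035 normalized reads, against 2659, 2875, 2694 and 2570.1 in WT TM libraries. The groups lay apart, and the log2 difference was −0.65 (SE 0.10, limma, adjusted p = 1.4e-04). For *his-5* the *osm-3* TM values were 3939, 4861, 3543 and 5397, against 6922, 7226, 6908 and 6463 in WT TM libraries. They lay apart as well, with a log2 difference of −0.63 (SE 0.11, limma, adjusted p = 5.9e-04).

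Their H3 genes, *his-6* and *his-49*, were also lower. The H3 gene *his-49* had 999.5, 753, 757 and 1338 normalized reads in *osm-3* TM libraries, against 1712, 1436, 1410.2 and 1516 in WT TM libraries, a log2 difference of −0.60 (SE 0.13, limma, adjusted p = 0.0033). For *his-6* the values were 1446, 939.9, 1072 and 1880.5 in *osm-3* TM libraries, against 2423, 1791, 1975 and 2196 in WT TM libraries (log2 difference −0.62, SE 0.15, limma, adjusted p = 0.0070). The *his-49* groups lay apart, while *osm-3* TM replicate 4 exceeded WT TM replicate 2 for *his-6*.

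The H2B gene *his-54* had 1728, 1592, 1484 and 2656 normalized reads in *osm-3* TM libraries, against 3349.9, 2759.7, 2687 and 2675 in WT TM libraries (log2 difference −0.60, SE 0.13, limma, adjusted p = 0.0043). The scarce H2B gene *his-8* had 77.6, 74.1, 88.4 and 119.6 normalized reads in *osm-3* TM libraries, against 177, 126, 134 and 133 in WT TM libraries. Its log2 difference of −0.31 (SE 0.08, limma, adjusted p = 0.015) is smaller than the log2 ratio of its mean reads, −0.67, because the deposited scale compresses changes at low levels. Neither gene's groups overlapped. Each class of core histone thus had called members in both the *his-5* and the *his-49* cluster.

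Outside chromosome V the H3 gene *his-32* fell most, by 0.52 on the log2 scale (SE 0.12, limma, adjusted p = 0.0039). It had 235.2, 229.6, 207 and 384 normalized reads in *osm-3* TM libraries, against 507, 428, 409.8 and 433 in WT TM libraries, with no overlap. The remaining calls were *his-43* (−0.41), *his-44* (−0.39), *his-31* (−0.37) and the copies *his-30* and *his-33* (−0.30), with limma adjusted p between 0.012 and 0.041. These 5 and *his-8* were called less firmly. Without *osm-3* TM replicate 1 all 6 missed the threshold, and 9 members remained called, all of them among the 15 (10 remained without the 2 shallowest libraries, *osm-3* vehicle replicate 3 and *osm-3* TM replicate 3). With the fit restricted to the *osm-3* TM and WT TM libraries, 9 members were called. The 9 members *his-5*, *his-6*, *his-7*, *his-32*, *his-49*, *his-50*, *his-51*, *his-53* and *his-54* stayed lower, past the threshold, under every alternative in which they were tested.

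**Figure D2:**
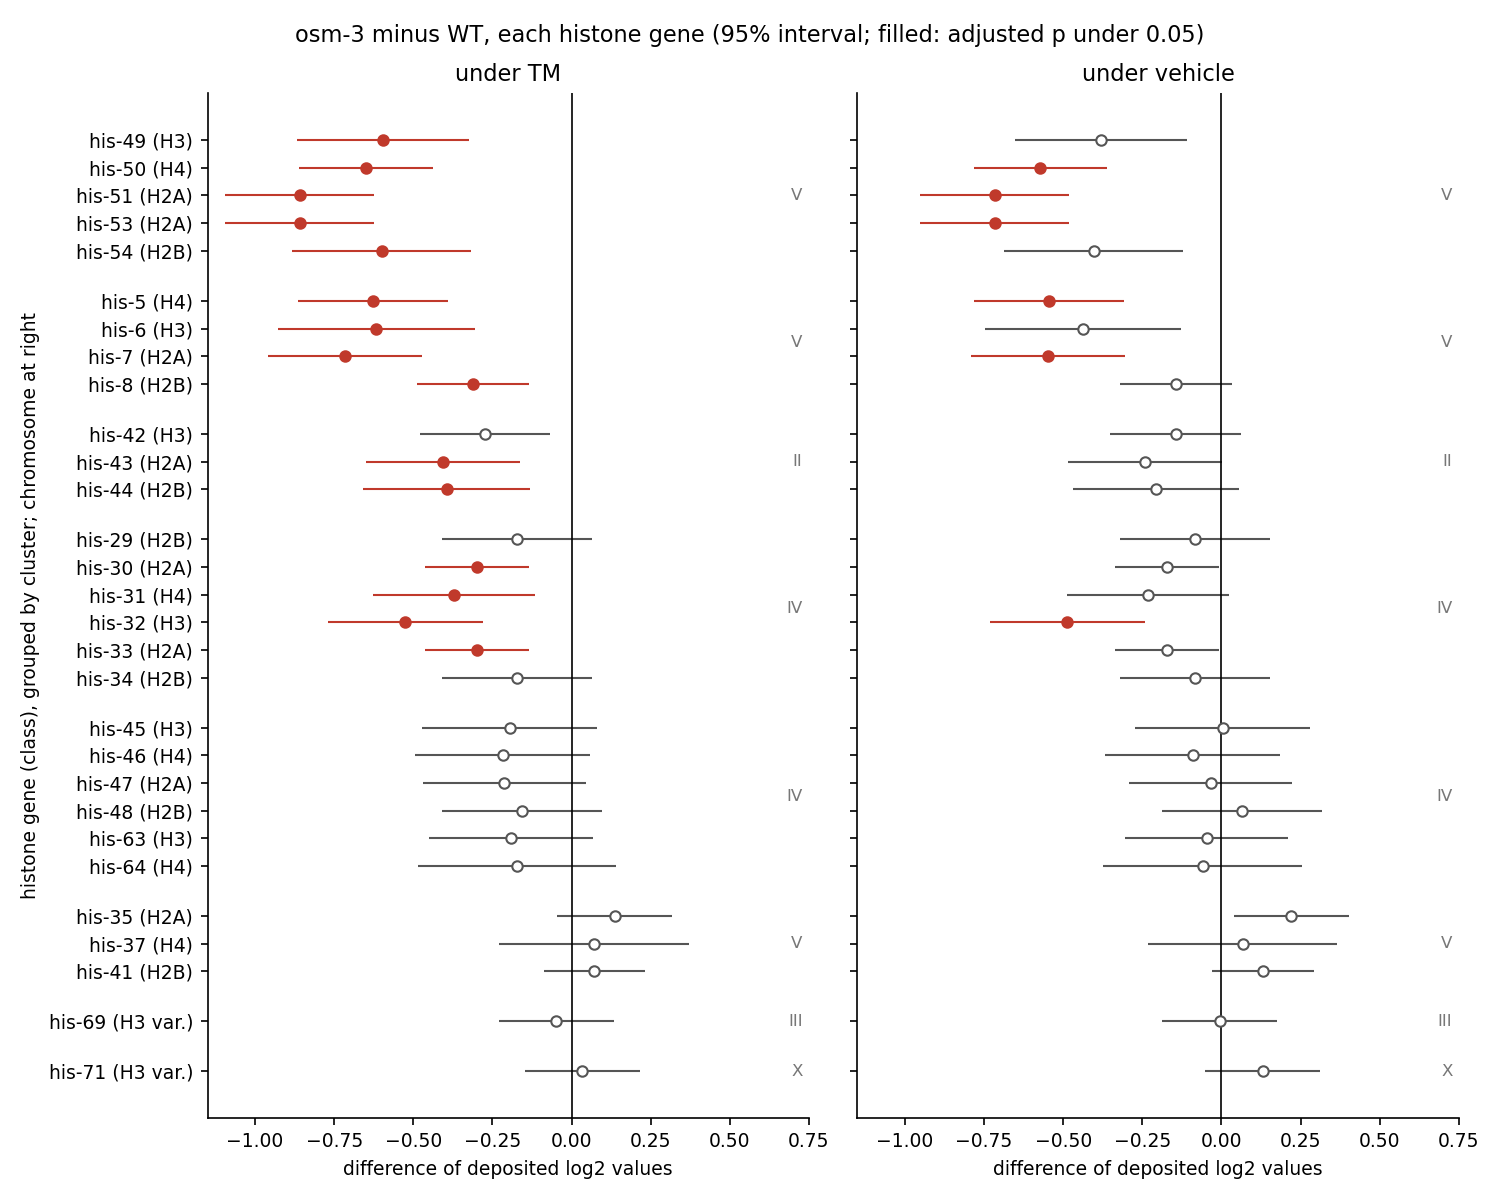
Difference of the deposited log2 values, *osm-3* minus WT, for the 29 histone genes tested, under TM on the left and under vehicle on the right. Points are estimates, lines are 95% intervals, filled red points have an adjusted p under 0.05, and genes are grouped by cluster with the chromosome at the right. The *his-49* and *his-5* clusters at the top lie farthest below 0, and the *his-35* cluster lies slightly above it.

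The same comparison under vehicle sets other libraries against each other, although all 16 enter the estimate of the spread and same-numbered *osm-3* libraries of both treatments deviated together. It gave 6 lower members (5 distinct profiles) and 0 higher, where 4.28% of all entries were lower and 6.37% higher. The 6 were *his-51*, *his-53*, *his-50*, *his-7*, *his-5* and *his-32*. All 6 were among the 15 called under TM, or 40% of those. The median over the members was −0.14, beside −0.04 over all entries.

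The copies *his-51* and *his-53* had 1593, 1679, 1752 and 1790.0 normalized reads in *osm-3* vehicle libraries, against 2756, 3007, 2696 and 3262 in WT vehicle libraries. These groups lay far apart (log2 difference −0.72, SE 0.11, limma, adjusted p = 2.5e-04). The H4 gene *his-50* had 1812, 1836, 1797 and 1888 normalized reads in *osm-3* vehicle libraries, against 2705, 2921, 2576 and 3107 in WT vehicle libraries, a log2 difference of −0.57 (SE 0.10, limma, adjusted p = 7.3e-04). The groups lay apart again. For *his-7* the *osm-3* vehicle libraries had 1989, 1982, 2115 and 1960.1, against 3069, 2883, 2817 and 3376 in WT vehicle libraries (log2 difference −0.55, limma, adjusted p = 0.0036). For *his-5* the mean was 4805 ± 229 in *osm-3* vehicle libraries and 7115 ± 584 in WT vehicle libraries (SD, n = 4 each, log2 difference −0.54, limma, adjusted p = 0.0030). The mutant libraries were closer to each other here than under TM, where replicate 3 was the lowest *osm-3* library for 21 of the 31 members and replicate 4 the highest for 23.

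For *his-32* the *osm-3* vehicle libraries had 277, 271, 354 and 331 normalized reads, against 509, 522, 386 and 588 in WT vehicle libraries (log2 difference −0.49, limma, adjusted p = 0.0091). The genes *his-6* (−0.44), *his-54* (−0.40) and *his-49* (−0.38) lay apart between the groups but missed the threshold, with limma adjusted p of 0.069, 0.065 and 0.070. Replicate number was also added as a block, since deviations of the vehicle libraries of both genotypes mostly followed this pairing (*osm-3* vehicle replicate 2 did not). The limma adjusted p of *his-6*, *his-54* and *his-49* were then 0.012, 0.028 and 0.015, and the count of lower members was 9. This block fitted a common effect of each number to all 16 libraries, although the *osm-3* TM and WT TM libraries were not taken as paired. The *his-45* cluster again had 0 of 6 called and 0 at an unadjusted p under 0.05 (12 of the 29 members and 22.8% of all entries), with differences of −0.09 to 0.06, and limma voom called 6 members as well.

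A ratio of reads within a library does not depend on its depth or size factor. The *his-5* and *his-49* clusters were therefore also set against the *his-45* cluster in each library. For 100 reads on the *his-45* cluster there were 13.01, 12.4, 14.0 and 15.3 reads on the *his-5* and *his-49* clusters together in *osm-3* TM libraries, against 18.3, 20.3, 21.0 and 20.1 in WT TM libraries. Under vehicle there were 13.6, 13.9, 13.8 and 13.5 in *osm-3* libraries, against 19.8, 20.3, 19.5 and 20.9 in WT libraries. No mutant library reached a WT library with either treatment. These sums were chosen after the values had been seen and get no test.

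The shift was visible in each class of histone when the *his-49* cluster was set against its counterpart in the *his-45* cluster. These genes were also chosen after their differences had been seen. The ratios are therefore no separate support for those differences and get no test. The H2A gene *his-51* had 4.12 to 4.84 reads per 100 of *his-47* in *osm-3* TM libraries and 4.19 to 4.69 in *osm-3* vehicle libraries, against 6.58 to 8.63 in WT TM and 7.005 to 8.24 in WT vehicle libraries. For H2B, *his-54* had 8.26 to 10.8 reads per 100 of *his-48* in *osm-3* TM libraries and 8.74 to 10.1 in *osm-3* vehicle libraries, against 12.3 to 13.7 in WT TM and 12.6 to 14.1 in WT vehicle libraries. None of these ranges overlapped between the genotypes. For H3, *his-49* had 4.82 to 7.15 reads per 100 of *his-45* in *osm-3* TM libraries and 6.25 to 6.77 in *osm-3* vehicle libraries, against 7.85 to 9.17 in WT TM and 8.17 to 9.36 in WT vehicle libraries. For H4, *his-50* had 6.74 to 9.30 reads per 100 of *his-46* in *osm-3* TM libraries and 7.95 to 8.60 in *osm-3* vehicle libraries, against 10.4 to 12.3 in WT TM and 11.2 to 12.4 in WT vehicle libraries. How kallisto divides reads between similar copies enters these ratios, and its part in the difference was not tested.

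**Figure D3:**
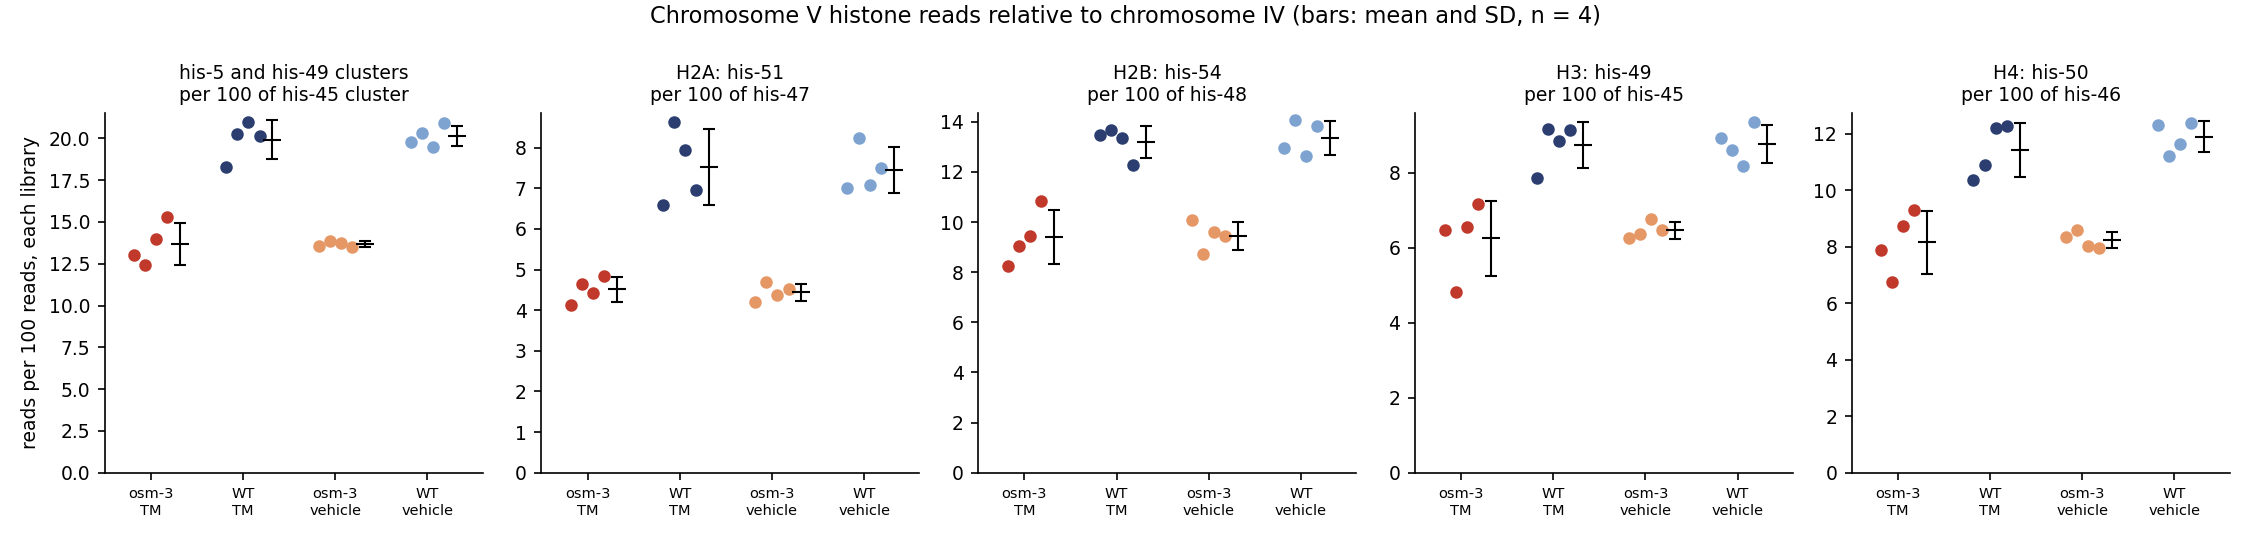
Reads of the *his-5* and *his-49* clusters (chromosome V) per 100 reads of the *his-45* cluster (chromosome IV) in each of the 16 libraries, on the left. Each of the other panels sets 1 gene of the *his-49* cluster against its class counterpart in the *his-45* cluster. The *his-35* cluster of chromosome V and the *his-29* cluster of chromosome IV are not included. Points are libraries, and bars give the mean and SD of 4. Every *osm-3* library lies below every WT library in all 5 panels, and libraries of the same genotype overlap between TM and vehicle.

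The other clusters differed less from the *his-45* cluster. The *his-42* cluster had 16.8 to 20.1 reads per 100 in *osm-3* TM libraries, against 19.5 to 21.8 in WT TM libraries, and these ranges overlapped. Under vehicle it had 17.3 to 19.6 in *osm-3* libraries, against 20.2 to 22.0 in WT libraries, with no overlap. The *his-29* cluster had 10.6 to 11.1 in *osm-3* vehicle libraries, against 12.2 to 12.8 in WT vehicle libraries, also apart, but 10.3 to 12.4 in *osm-3* TM libraries and 11.2 to 14.2 in WT TM libraries overlapped.

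The *his-35* cluster went the other way by a small amount. The H2A gene *his-35* had 477, 508, 523 and 465 normalized reads in *osm-3* TM libraries, against 450.4, 457, 379 and 449 in WT TM libraries. The groups did not overlap, but the difference (log2 0.14, limma, adjusted p = 0.25) missed the threshold, and so it did under vehicle (log2 0.22, limma, adjusted p = 0.12). For the H4 gene *his-37* the normalized reads ran from 795 to 1331 in *osm-3* TM libraries, against 848 to 1244 in WT TM libraries, and the log2 values differed by 0.07 under both treatments (limma, adjusted p = 0.72 under TM and 0.85 under vehicle).

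Neither H3.3 gene tested passed between the genotypes under either treatment. The variant *his-71* had 116, 83.4, 111 and 79.7 normalized reads in *osm-3* TM libraries, against 97.4, 88.3, 109.6 and 73.4 in WT TM libraries, and its 95% interval ran from −0.15 to 0.22. For *his-69* the *osm-3* TM libraries had 72.6, 94.7, 78.4 and 112, against 119, 74.3, 93.5 and 100.1 in WT TM libraries (interval −0.23 to 0.13). Under vehicle *his-71* had 105, 94.03, 131 and 89.8 in *osm-3* libraries, against 66.9, 98.6, 110.4 and 67.1 in WT libraries. These overlapped, and the means differed by 22.4% (log2 difference 0.13, interval −0.05 to 0.31, limma, adjusted p = 0.42). With library weights *his-71* was higher under vehicle (0.22, adjusted p = 0.0083). For *his-69* the difference under vehicle was −0.01 (interval −0.19 to 0.18). The scarce *his-70*, which was not tested, had 17.3, 10.3, 5.70 and 4.20 normalized reads in *osm-3* TM libraries, against 1.74, 0.83, 2.67 and 2.86 in WT TM libraries. Under vehicle it had 5.28, 6.60, 1.70 and 5.73 in *osm-3* libraries, against 3.52, 2.87, 2.16 and 3.05 in WT libraries, where the groups overlapped.

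Sums over a class are less sensitive to reads shared between copies, and in each of the 4 core classes the *his-45* cluster holds the most abundant gene. The 8 H2A genes summed to 52936 ± 9290.4 normalized reads in *osm-3* TM libraries and 66520 ± 5861 in WT TM libraries (SD, n = 4 each), a log2 ratio of means of −0.33. The H4 sum was 53832 ± 10666 in *osm-3* TM libraries and 65246 ± 7718 in WT TM libraries (log2 ratio −0.28). The H3 sum was 26121 ± 4950.1 in *osm-3* TM libraries and 31089.9 ± 4266 in WT TM libraries (log2 ratio −0.25), and the H2B sum was 25577 ± 5034 in *osm-3* TM libraries and 29728 ± 3247 in WT TM libraries (log2 ratio −0.22). In all 4 classes the libraries of the 2 groups overlapped, and single libraries moved the ratios. Without *osm-3* TM replicate 3 they were −0.24 (H2A), −0.13 (H2B), −0.14 (H3) and −0.18 (H4), without WT TM replicate 1 those of H2B and H3 were −0.14 and −0.15, without *osm-3* TM replicate 4 that of H2B was −0.35, and over all single libraries left out the ratios ran from −0.45 to −0.24 for H2A, −0.35 to −0.13 for H2B, −0.37 to −0.14 for H3 and −0.40 to −0.18 for H4. Without the largest member of each class they were −0.51 for H2A, −0.44 for H2B, −0.33 for H3 and −0.32 for H4. The sums get no test because the members were chosen with results known.

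Under vehicle the H4 sum was 57115 ± 2046 in *osm-3* libraries and 64631 ± 4860.0 in WT libraries (SD, n = 4 each), and these did not overlap (log2 ratio −0.18). The H2A sum was 62841 ± 4071 in *osm-3* libraries and 70510.4 ± 4910.2 in WT libraries (log2 ratio −0.17). The H3 and H2B sums had log2 ratios of −0.08 and −0.02. Without its largest member, a gene of the *his-45* cluster in each case, the class ratio under vehicle was −0.35 for H2A, −0.26 for H2B and −0.19 for H3. The H3.3 genes summed to 196.3 ± 7.04 in *osm-3* TM libraries and 190.9 ± 25.4 in WT TM libraries, and to 207.6 ± 9.77 in *osm-3* vehicle libraries and 187.1 ± 25.3 in WT vehicle libraries. As a share of reads, the core genes of *osm-3* libraries lay below those of WT libraries under both treatments, whereas in normalized reads the groups overlapped.

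**Figure D4:**
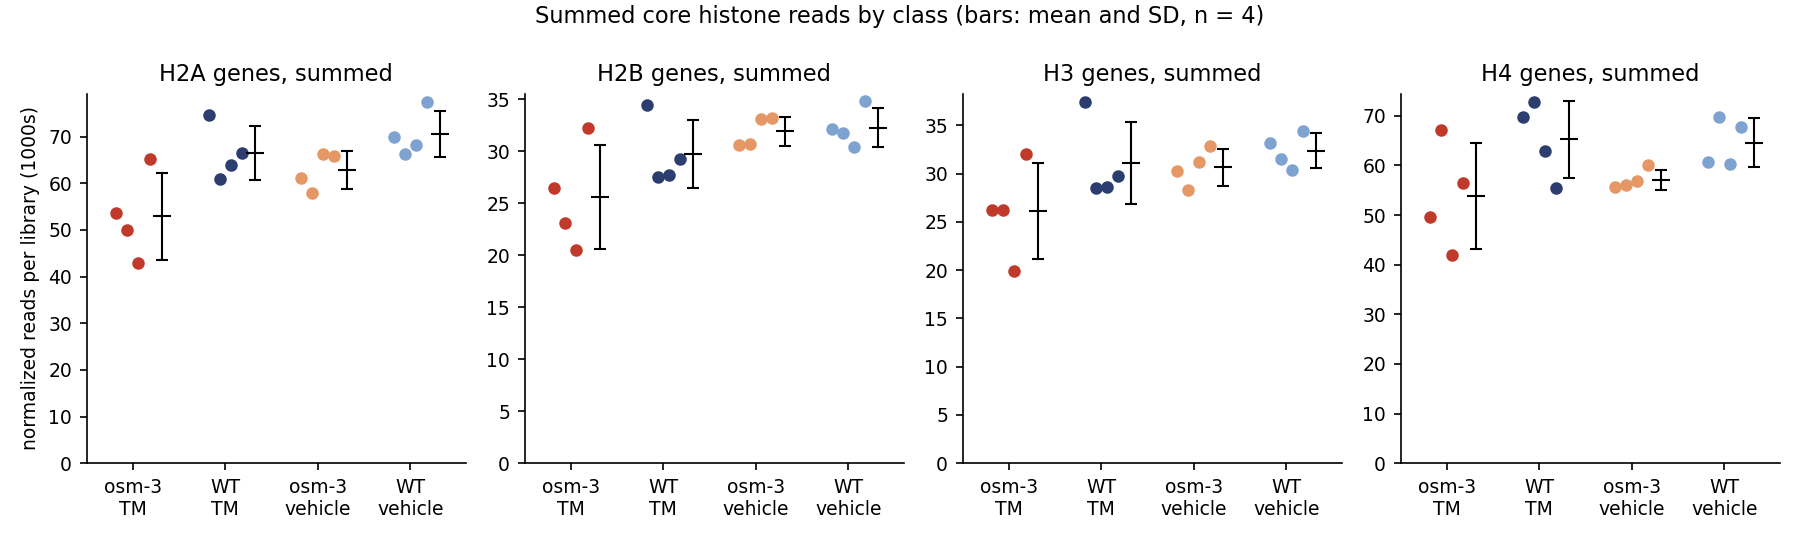
Summed normalized reads (in units of 1000) of the H2A, H2B, H3 and H4 genes in each library, by group. Points are libraries, and bars give the mean and SD of 4. The *osm-3* TM libraries spread most, and the *osm-3* vehicle libraries lie below the WT vehicle libraries without overlap for H4 alone.

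TM changed no histone gene past the threshold. In WT animals 0 of 29 members passed, where 1.56% of all entries passed. At an unadjusted p under 0.05 there were 0 members as well, beside 8.99% of all entries. The limma adjusted p was 0.995 for every member, the median log2 difference −0.06 and the 95% intervals lay within −0.41 to 0.46. The sums of the core classes differed by −7.85% (H2B) to 0.952% (H4) with TM, which was within the spread of the libraries. The count was 0 under each alternative run, limma voom on the recovered reads included.

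In *osm-3* mutants 0 of 29 passed as well (limma, adjusted p = 0.36 to 0.81), where 0.0729% of all entries passed, but 28 of the 29 lay below 0 (58.2% of all entries did), with a median of −0.21 beside −0.04 over all entries. At an unadjusted p under 0.05, 6 members were lower, beside 7.83% of all entries. The abundant H2B gene *his-48* had 20935, 17602, 15715 and 24530.2 normalized reads in *osm-3* TM libraries, against 23616, 24104, 25439 and 25291 in *osm-3* vehicle libraries (log2 difference −0.34, SE 0.12, limma, adjusted p = 0.36). Replicate 4 was the mutant TM library that overlapped the vehicle libraries. The H2A gene *his-47* had 33899, 29691, 25338 and 39368 normalized reads in *osm-3* TM libraries, against 38029.8, 35800.5, 40179 and 39676 in *osm-3* vehicle libraries (log2 difference −0.28, limma, adjusted p = 0.36).

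That result depended on 2 libraries, in opposite directions. Without *osm-3* TM replicate 3 the median difference was −0.10 with 0 calls, and without the 2 shallowest libraries (this one and *osm-3* vehicle replicate 3) it was −0.095 with 0 calls. Without *osm-3* TM replicate 4 15 of the 29 members were lower (limma, adjusted p under 0.05), where 15.5% of all entries were, and the median difference was −0.29. The *his-48* gene then fell by 0.45 on the log2 scale (limma, adjusted p = 0.033), and *his-47* by 0.38 (limma, adjusted p = 0.038). With weights for each library 19 members were lower, beside 22.1% of all entries, and the median difference was −0.21. These weights gave *osm-3* TM replicate 4 the lowest weight of the 16 (0.252), but replicates 2 and 3 had only 0.381 and 0.379. Replicate 1 had 4.88 among the *osm-3* TM libraries and 5.11 among the *osm-3* vehicle libraries, so that this fit rested mainly on replicate 1. The count was 0 with limma voom, with a block for the replicate number and with the 8 *osm-3* libraries alone. The labels give no reason to leave either library out.

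**Figure D5:**
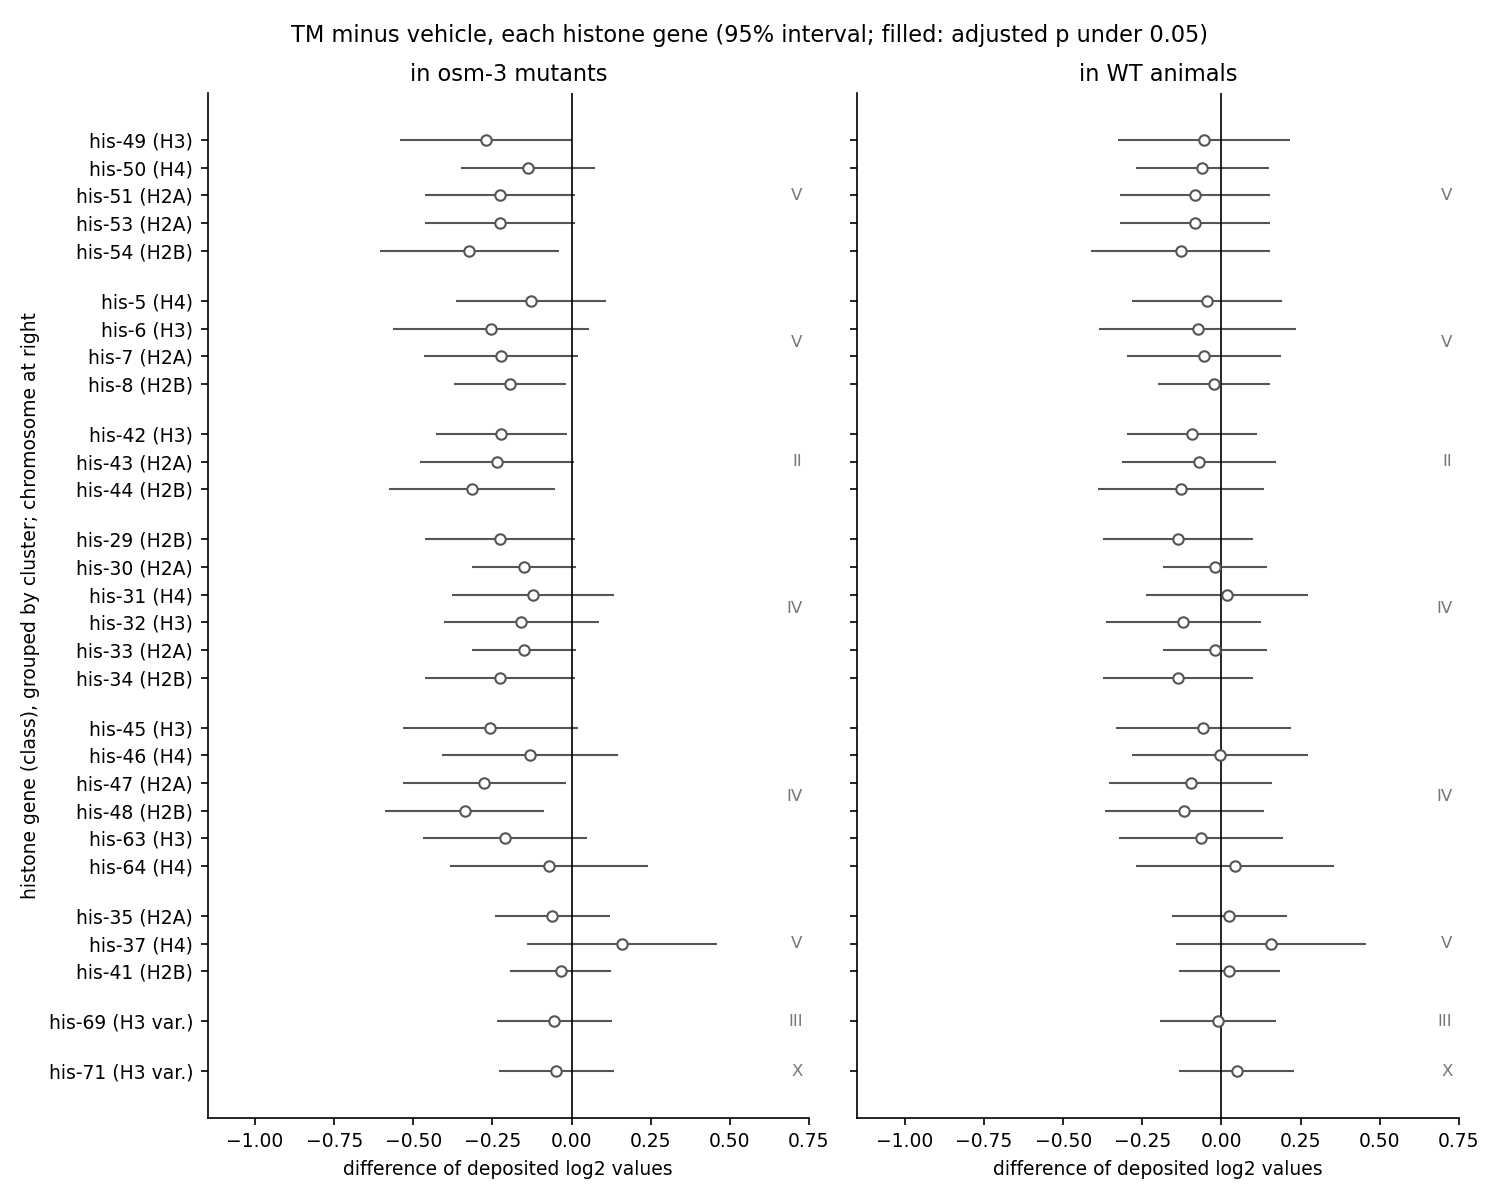
Difference of the deposited log2 values, TM minus vehicle, for the 29 histone genes tested, in *osm-3* mutants on the left and in WT animals on the right. Points are estimates, lines are 95% intervals, and open points did not pass an adjusted p of 0.05. No point is filled, and all but *his-37* lie below 0 in the mutants.

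Whether the response to TM differed between the genotypes was tested directly. The difference of responses (*osm-3* minus WT) passed for 0 of 29 members (limma, adjusted p of at least 0.90, and 0 at an unadjusted p under 0.05), where 0.486% of all entries passed and 4.91% had an unadjusted p under 0.05. The members' differences lay between −0.22 and 0.0032 with a median of −0.13, beside −0.05 over all entries. Their 95% intervals reached from −0.62 to 0.43, and differences inside these bounds could not be resolved. Limma voom on the recovered reads gave 0 calls too.

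Among other histone genes, the linker histone genes *hil-3* and *hil-1* moved in opposite directions. In *osm-3* mutants *hil-3* fell by 0.34 under TM (limma, adjusted p = 0.015) and by 0.31 under vehicle (adjusted p = 0.037), while *hil-1* rose by 0.32 under TM (adjusted p = 0.022) and by 0.30 under vehicle (adjusted p = 0.047). The 2 other linker genes tested, *hil-4* and *hil-5*, did not pass. Of 7 genes for histone message processing and histone chaperones, 0 passed in any comparison. In *osm-3* mutants under TM 3 of the 7 had an unadjusted p under 0.05, beside 35.4% of all entries. All 7 lay below 0 there (median −0.25), as did 67.2% of all entries. Of 12 S phase genes, 3 were lower in *osm-3* mutants under TM, beside 9.74% of all entries. All 12 lay below 0, with a median of −0.32 beside −0.10 over all entries. An unadjusted p under 0.05 was found for 7 of the 12, beside 35.4% of all entries. The 3 called were *rnr-2*, a subunit of ribonucleotide reductase (−0.48, limma, adjusted p = 0.0047), *rpa-1*, which binds single-stranded DNA (−0.34, adjusted p = 0.0499), and *rfc-4*, a subunit of the clamp loader (−0.25, adjusted p = 0.041). Under vehicle 0 of the 12 passed, and 2 had an unadjusted p under 0.05 (22.8% of all entries did). There 11 of the 12 lay below 0, with a median of −0.13 beside −0.04 over all entries.

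Among markers of tissues, most calls between the genotypes fell on the sperm and epidermis genes given below. Of 15 germ line and oocyte genes 0 passed in either genotype comparison (limma). At an unadjusted p under 0.05 there were 3 under TM (35.4% of all entries) and 0 under vehicle (22.8%). All 15 lay below 0 in *osm-3* mutants under TM (median −0.23), as did 67.2% of all entries, and 8 under vehicle (median −0.01). Their sum ran from 56985 to 112216 normalized reads in *osm-3* TM libraries, against 70803 to 114922 in WT TM libraries, and from 81014 to 114936 in *osm-3* vehicle libraries, against 81527 to 108219 in WT vehicle libraries. So the sum overlapped between genotypes under both treatments. Of 4 early embryo genes 1 was tested, *vet-6*, which was lower under TM (−0.46, limma, adjusted p = 0.025) and missed the threshold under vehicle (−0.32). The 4 summed to 129.7 to 318 normalized reads in *osm-3* TM libraries, against 258 to 376 in WT TM libraries, and to 199.6 to 320.1 in *osm-3* vehicle libraries, against 312 to 372 in WT vehicle libraries.

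Sperm genes (*msp-*) were higher in *osm-3* mutants, 9 of 9 tested under both treatments, with a summed level of 2987 to 6464 normalized reads in *osm-3* TM libraries, against 692 to 992 in WT TM libraries, and 3419 to 5699 in *osm-3* vehicle libraries, against 808 to 1287 in WT vehicle libraries. The largest differences under TM were those of *msp-55* (1.99), *msp-19* (1.74) and *msp-77* (1.44). Collagen genes (*col-*), markers of the epidermis, were higher for 37 of 40 under TM, led by *col-81* (2.46), *col-139* (2.29) and *col-138* (2.23), and for 8 of 40 under vehicle. The collagen sum was 652042 to 850959 in *osm-3* TM libraries, against 394802 to 525676 in WT TM libraries. Under vehicle it was 682088 to 828998 in *osm-3* libraries, against 509720 to 677687 in WT libraries, also with no overlap. The synaptic vesicle gene *snt-1* was higher under TM (0.31), the only call among 3 neuron genes, and 0 of 3 muscle and 0 of 4 intestine genes passed (limma). At an unadjusted p under 0.05 there were 1 muscle and 1 intestine gene under TM, and 2 muscle and 0 intestine genes under vehicle. The muscle genes summed to 17922 to 28807 normalized reads in *osm-3* TM libraries, against 14856 to 24654 in WT TM libraries, and to 25243 to 35627 in *osm-3* vehicle libraries, against 17760.1 to 24546 in WT vehicle libraries, which lay apart under vehicle alone (medians of the log2 differences 0.36 under TM and 0.46 under vehicle). No marker gene on these lists was at 0 in all libraries. The part of these shifts in the histone result was not tested.

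The 3 genes outside the family whose log2 values followed the summed core histone level most closely over the 16 libraries were *rsp-4* (Pearson r = 0.98), F19B6.1 (r = 0.98) and *hda-2* (r = 0.97), of 4086 compared. These are a description, since the libraries share groups and depth. The gene *rsp-4* encodes a splicing factor of the SR family and *hda-2* a histone deacetylase. Between *osm-3* and WT under TM they differed by −0.24 (*rsp-4*), −0.35 (F19B6.1) and −0.26 (*hda-2*), none past the threshold.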

How the data were processed

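Total RNA of whole *C. elegans* had been depleted of rRNA and sequenced from paired ends with a stranded kit, in 4 biological replicates for each of 4 groups. Trimmed reads were counted by the authors with kallisto 0.43.0-1 against Ensembl transcripts, summed to genes and passed to DESeq2 1.16.1, and the deposited values are variance-stabilized log2 values of the normalized counts. Kallisto divides reads between transcripts that share sequence, so that near-identical histone copies are uncertain one by one. The deposited tables with the study's own fold changes and p-values were not used. The transformation could be inverted, which gave whole reads for 100.0% of values (tolerance 0.01). The 1 entry without a name was left out.

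Differences were tested with limma 3.58.1 in R 4.3.3 (4 group means over all 16 libraries, trended prior, two-sided, Benjamini-Hochberg over the 4115 entries with a mean of 1 log2 unit or more over the lowest value, 6.68, threshold 0.05). The p-values rest on the spread between 4 replicates a group. The deposited scale understates changes of low genes. Class, cluster and ratio values are sums of normalized reads, as mean and SD, without a test. Figures were drawn with matplotlib 3.10.9, and sums were made with pandas 2.3.3 and numpy 2.4.6 in Python 3.11.15.

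Replicate numbers 1 to 4 occur in every group. Deviations from the group means correlated between libraries of the same number by 0.25 to 0.58 (WT TM and WT vehicle), 0.33 to 0.86 (*osm-3* TM and *osm-3* vehicle) and 0.18 to 0.50 (*osm-3* vehicle and WT vehicle), which was taken as pairing, but by −0.04 to 0.64 for *osm-3* TM and WT TM, which was not. The pairing was not clean. WT TM replicate 2 correlated more with another WT vehicle number (0.47 against 0.25). So did *osm-3* TM replicate 3 with *osm-3* vehicle (0.56 against 0.36), and *osm-3* vehicle replicate 2 with WT vehicle (0.46 against 0.18). Between *osm-3* TM and WT TM, replicates 2 and 3 correlated most with their own number (0.64 against 0.28, and 0.62 against 0.36). The *osm-3* TM replicates 1 and 4 correlated more with another WT TM number (0.28 against −0.04, and 0.80 against 0.03). The pairing comes from the data, and the labels give no shared batch or day.

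Genes named were the called members with up to the 8 largest changes in each direction, the H3.3 genes, the highest and lowest tested gene of each class, up to 3 called genes in each direction of each list of related genes or tissue markers, and the 3 genes most like the summed core level. Other members were named for their cluster after their values had been seen. The members and lists were chosen with earlier results of these data known. Alternatives were other filters, scalings, weights and fits, the replicate block, limma voom, and leaving out each library. The library weights were 4.72 for WT vehicle replicate 1, 5.11 for *osm-3* vehicle replicate 1 and 4.88 for *osm-3* TM replicate 1. Every other library had a weight of 0.252 to 1.65. Histone sequences are not shown.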

Additional observations from a re-analysis of the deposited data

Results flagged for a closer look

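Within each group of 4 libraries, the highest or lowest library was set against the rest by its gap to the nearest other library over the range of the group (Dixon's ratio above its 95% critical value). Of 168 groups examined, 11 had such a library, and chance alone gives about 1 in 20.

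Of the 11, 5 were high values of WT TM replicate 1. The H3 genes of this library summed to 37439.5 normalized reads, and the next WT TM library had 29716. On the deposited log2 scale it had 11.65 for *his-7* (next 11.59), 8.46 for *his-8* (next 8.25), 11.79 for *his-54* (next 11.53) and 13.02 for *his-63* (next 12.73). Without this library 11 members were lower in *osm-3* mutants under TM, in place of 15, and *his-8*, *his-31*, *his-43* and *his-44* were those that missed the threshold.

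The H2A gene *his-35* was lowest in WT TM replicate 3 (9.14, next 9.32) and highest in WT vehicle replicate 3 (9.42, next 9.21). Of the other members, *his-41* was high in *osm-3* TM replicate 1 (9.04, next 8.84), *his-54* was low in *osm-3* vehicle replicate 2 (11.17, next 11.33), and *his-42* was high in WT vehicle replicate 4 (11.61, next 11.53). By depth, *osm-3* vehicle replicate 3 stood apart with 4173301 reads on named genes, where the next library of its group had 7554487.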

How the results depend on the processing

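No difference of a called histone gene changed sign under any alternative. Of the 21 called differences, 15 stayed past the threshold under every alternative in which they were tested (all 6 under vehicle, and those of *his-5*, *his-6*, *his-7*, *his-32*, *his-49*, *his-50*, *his-51*, *his-53* and *his-54* under TM). The filter at 3 log2 units left *his-32* untested. The 6 others lost the threshold in 36 of 541 alternative values over all 21. The count of lower members in *osm-3* mutants under TM was 15. It was 9 with a filter at 3 log2 units (19 members tested, 5.40% of all entries lower), where 4 of the 15 were not tested and *his-31* and *his-44* were lost. The count was 9 with only the groups compared (3.3%), 18 with library weights (25.7%), and 9 to 19 when single libraries were left out. With the replicate block it was 16 (21.2%), adding *his-42* (adjusted p = 0.035), though these libraries were not taken as paired. Under vehicle the count of 6 was 18 with library weights (15 lower, beside 18.7% of all entries, and 3 higher, *his-35*, *his-41* and *his-71*), 9 with the replicate block (8.09% of all entries lower), 9 with only the groups compared (6.68%), in place of 4.28%, and 6 to 9 without single libraries. For TM in *osm-3* mutants the count of 0 was 19 with library weights (22.1% of all entries lower) and 0 to 15 without single libraries, 15 being the value without *osm-3* TM replicate 4 (15.5%). The cause was not tested. For TM in WT animals and for the difference of responses the count was 0 under all alternatives, and the replicate block ended or added no other call than those given here and in the results. Of 348 recomputed log2 ratios of sums (each class, all core genes and the variant genes), 342 moved by less than 1 SD. Most of them left out a single library of a group, which can hardly shift a mean by 1 SD. This count therefore says little about how stable the ratios are. Without the largest member the ratio under vehicle was −0.35 for H2A, −0.26 for H2B and −0.19 for H3. The scarce *his-39* and *his-70* were not tested.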
